A study of Mus musculus with 4 samples.

Results

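The heterotrimeric G protein subunits described here are Gna11, Gna12, Gna13, Gnai2, Gnai3, Gnaq, Gnas, Gnb1, Gnb2 and Gng12. Their RNAs were followed through every probe set, a group of oligonucleotides on the array that reads 1 transcript region, whose platform annotation names exactly 1 gene symbol and whose symbol is among these 10. The rule gave 36 of the 45101 probe sets on the array, and no probe set with several symbols named a member. RNA came from NIH/3T3 cells, a mouse fibroblast line without genetic modification here, on 4 Affymetrix mouse arrays: 2 of pseudopodia, the protrusions that cells push through a porous membrane, and 2 of the cell bodies left on its upper side. In both groups the cells were starved of serum overnight, spread for 2 h on a fibronectin-coated membrane of 24 mm diameter, and given lysophosphatidic acid (LPA) from below at 150 ng/ml for 1 h before light formaldehyde fixation. Unstimulated cells were not analysed here, so the comparison is between the parts of LPA-stimulated cells and not between stimulated and unstimulated cells. The labels call the samples independent but give no detail on separate cultures, and the p-values therefore cover only the variation among these 4 arrays, part of which may be technical.

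A heterotrimeric G protein has an alpha subunit, which binds GDP at rest and GTP when a receptor activates it, and a beta and a gamma subunit that act as a tight dimer. LPA is a serum phospholipid whose receptors couple to alpha subunits of the G12/13, Gq/11 and Gi classes. G12 and G13 activate guanine nucleotide exchange factors for the small GTPase RhoA and so drive contraction, Gq and G11 activate phospholipase C-beta, Gi inhibits adenylyl cyclase, and Gs stimulates it. Free beta-gamma dimers act on their own effectors, which is a way by which Gi-coupled receptors steer migrating cells.

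Signals are the deposited MAS5 intensities, 1 linear value per probe set and array, and signals of different probe sets are not comparable with each other. A difference is log2 of pseudopodia over cell bodies on the log2(signal + 32) scale after each array was scaled to a trimmed mean of 500, given ± its SE from limma (n = 2 for each fraction). It is relative to the total signal of each fraction, so how much protrusion was collected and how much RNA a protrusion holds cannot be told apart. Of the 36 probe sets, 31 passed the filter on dim signal and entered the test with all others that passed, 22519 in all. The 5 that did not pass were 3 of Gnas, 1 of Gna12 and 1 of Gnaq, with signals from 1.1 to 32.8 over the 4 arrays. Every gene kept at least 1 probe set.

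Known RNAs were read for scale, and not as an independent check of the fraction labels. Rab13, a small GTPase whose RNA is known from protrusions, differed by 1.99 ± 0.21, and Neat1, a nuclear long noncoding RNA, by -2.17 ± 0.21. Of 7 fibroblast markers 6 passed the filter, and all 7 together had summed signals of 92004.2 and 96533.5 in pseudopodia and 101057.4 and 104475.3 in cell bodies, while Thy1 was near background at 56.3 and 16.2 in pseudopodia and 5.7 and 33.5 in cell bodies. The 3 blood markers summed to 36.0 and 82.4 in pseudopodia and 80.2 and 97.7 in cell bodies. The 3 endothelial ones summed to 41.2 and 84.6 in pseudopodia and 36.1 and 48.7 in cell bodies. The 4 epithelial ones summed to 596.4 and 920.7 in pseudopodia and 735.5 and 783.2 in cell bodies. Of these, 1 blood, 1 endothelial and 3 epithelial markers passed the filter, the brightest being Krt8 of epithelium with a mean of 383.7. No marker was at 0. Their part in the results was not tested. The nuclear RNAs Neat1 and Malat1 together gave 1125.7 and 2472.8 in pseudopodia, against 5414.9 and 6280.0 in cell bodies, so the pseudopodia replicate 2 array held more of them than the replicate 1 array. The ratio of 3′ to 5′ signal on the beta-actin controls, a sign of RNA integrity, was 1.77 and 3.41 on the pseudopodia arrays and 1.55 and 1.89 on the cell body arrays. On the Gapdh controls it was 0.96 and 1.01 on the pseudopodia arrays and 0.919 and 0.946 on the cell body arrays. Arrays of 1 replicate number were scanned on the same day, and the numbers mark 2 scan days.

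The RNAs of the G protein subunits differed between pseudopodia and cell bodies by a median close to that of all probe sets. The differences of the 31 probe sets ran from -1.30 to 0.91 with a median of 0.06, and those of all 22519 had a median of -0.03. Of the 31, 16 were above 0 and 15 below, where 47.7% of all probe sets were above, and 30 lay within 1 log2 unit of 0 (96.8%, against 91.1% of all probe sets). By limma with Benjamini-Hochberg adjustment over all probe sets at 0.05, 1 of the 31 passed as lower in pseudopodia, where 3.32% of all probe sets did, and 0 passed as higher, where 1.08% did (4.4% in either direction). At an unadjusted p under 0.05 there were 6 higher and 1 lower among the members, 22.6% of them, against 22% of all probe sets. Taken in either direction, both of these shares are near the background. The share of all probe sets in each direction at an unadjusted p under 0.05 was not counted, so the 6 against 1 has no background here. With 2 arrays against 2 an exact permutation test cannot give a p below 0.333, so none was run.

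**Figure D1:**
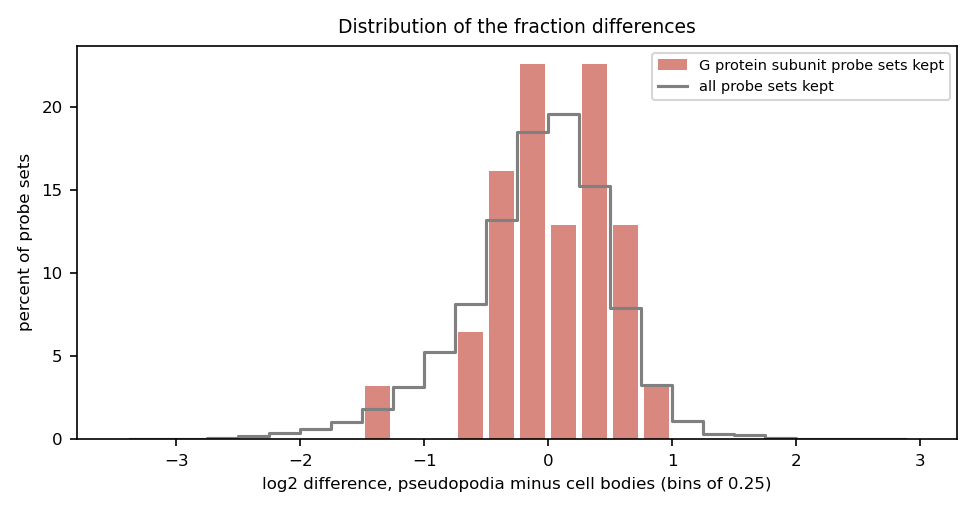
Share of probe sets (vertical axis, percent) by log2 difference between pseudopodia and cell bodies (horizontal axis, bins of 0.25), as bars for the 31 G protein subunit probe sets and as a line for all 22519 probe sets tested. The bars lie between -1.30 and 0.91 and cover the middle of the line.

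Counts of arrays that did not overlap leaned more to the higher side than those of all probe sets. In 11 of the 31 probe sets (35.5%) both pseudopodia arrays lay above both cell body arrays, and in 3 (9.68%) they lay below. In the other 17 (54.8%) the fractions overlapped. Over all probe sets 24.8% lay above and 28.2% below, 53% in either direction. The 11 are not independent, since Gna13, Gnaq and Gng12 each gave more than 1 of them. On hybridization controls 9 of the 31 differences were above 0, against 16 as reported, and the median of all probe sets fell to -0.32. When every pseudopodia array had to differ from every cell body array by 1.5-fold or more, 0 members counted as higher and 1 as lower, against backgrounds of 2.79% and 7.86%. With the replicate number as a block in the same fit, 4 probe sets (12.9%) were higher (Gng12 with 2, Gnai2 and Gnaq with 1 each) and 1 (3.23%) lower, where 6.84% and 11.3% of all probe sets were. That fit leaves 1 residual degree of freedom and rests mostly on a spread shared over all probe sets.

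**Figure D2:**
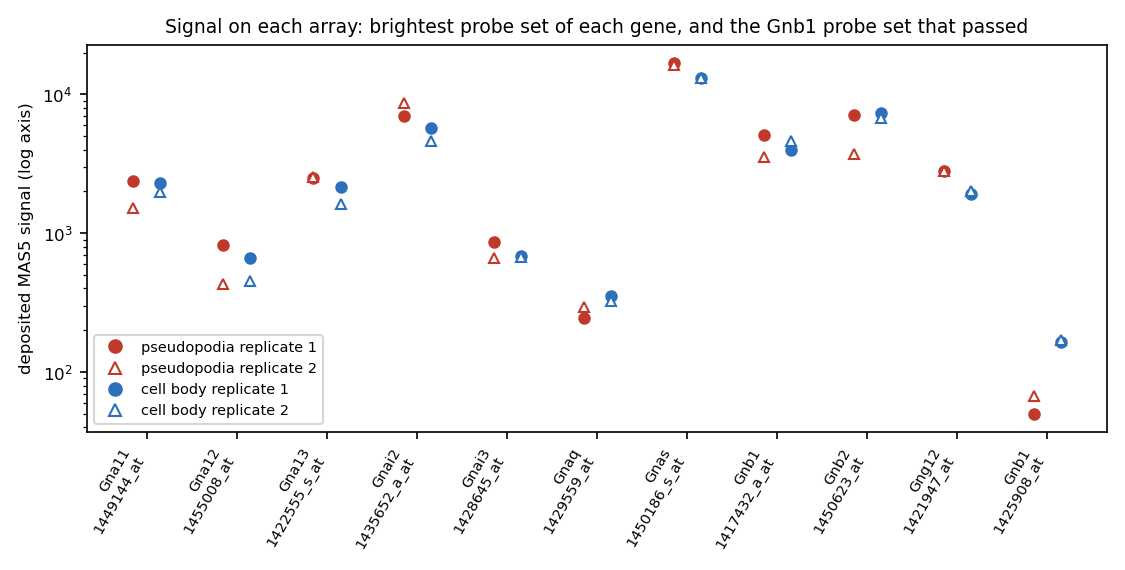
Deposited MAS5 signal (log axis) of the brightest probe set of each of the 10 genes, and of Gnb1 1425908_at at the right, on the 2 pseudopodia arrays (red, left of each pair) and the 2 cell body arrays (blue). Circles are replicate 1 and open triangles replicate 2. Gnai2, Gna13, Gnas and Gng12 have both red points above both blue ones (for Gnas not after quantile normalization or scaling on hybridization controls), and Gnaq 1429559_at and Gnb1 1425908_at have both below.

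Gna13 encodes the alpha subunit of G13, which links LPA receptors to RhoA through Arhgef1 and related exchange factors. All 7 of its probe sets were tested and none passed, with differences from -0.09 to 0.50. Its brightest, 1422555_s_at, gave 2478.0 and 2556.2 in pseudopodia, against 2153.5 and 1629.6 in cell bodies, a difference of 0.42 ± 0.20 (limma adjusted p = 0.264). Probe set 1430295_at gave 1304.0 and 1486.4 in pseudopodia and 886.8 and 1081.1 in cell bodies (0.50 ± 0.20, limma adjusted p = 0.206). In these 2 and in 1450656_at (0.36 ± 0.20) both pseudopodia arrays lay above both cell body arrays, and on hybridization controls the 3 stood at 0.09, 0.17 and 0.04. The other 4 overlapped, at 0.28, -0.04, -0.07 and -0.09. In the replicate 1 pair all 7 were above 0, from 0.12 to 0.80, and in the replicate 2 pair they ran from -0.31 to 0.64. Averaged over the pairs, probe sets of this gene therefore give no common direction.

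Gna12 encodes the alpha subunit of G12, the closest relative of G13. Its 4 tested probe sets stood at 0.11, -0.35, -0.36 and -0.58, and in all of them the arrays of the fractions overlapped. The brightest, 1455008_at, gave 820.7 and 431.4 in pseudopodia, against 668.1 and 452.7 in cell bodies (0.11 ± 0.34, limma adjusted p = 0.886). These values follow the replicate number more than the fraction: both replicate 2 arrays lie below both replicate 1 arrays. Probe set 1450097_s_at showed that order too, with 227.5 and 72.3 in pseudopodia and 277.5 and 147.3 in cell bodies (-0.58 ± 0.49). In each of the 4 the replicate 2 minus replicate 1 difference, averaged over the fractions, was larger in size than the difference between fractions. In the order of the 4 differences above, it was -0.72, -0.91, -0.84 and -1.16.

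Gnaq encodes the alpha subunit of Gq, an activator of phospholipase C-beta. Of its 7 probe sets 6 were tested, and they ranged from -0.31 to 0.91. Probe set 1455729_at had the highest difference of all 31, with 325.7 and 418.6 in pseudopodia and 222.3 and 161.1 in cell bodies. Both pseudopodia arrays lay above both cell body arrays, and the difference of 0.91 ± 0.26 missed the threshold (95% interval 0.30 to 1.51, limma adjusted p = 0.0926, or 0.0139 with the replicate block). On hybridization controls it was 0.59. Another probe set of Gnaq, 1429559_at, stood on the other side, with 247.1 and 293.8 in pseudopodia and 351.1 and 325.9 in cell bodies (-0.31 ± 0.22, limma adjusted p = 0.467). The remaining 4 were dim, with means over the arrays from 49.4 to 101.6, and stood at 0.41, 0.06, -0.02 and -0.26. Nor do the probe sets of Gnaq point one way.

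Gna11 encodes the alpha subunit of G11, which shares its effectors with Gq. Both of its probe sets were bright and close to 0. Probe set 1449144_at gave 2389.6 and 1508.0 in pseudopodia, against 2293.7 and 1963.8 in cell bodies (-0.16 ± 0.25, limma adjusted p = 0.757), and 1434254_at gave 1479.1 and 1767.5 in pseudopodia, against 1399.1 and 1560.1 in cell bodies (0.13 ± 0.19, limma adjusted p = 0.747). The 95% intervals, -0.74 to 0.42 and -0.32 to 0.58, leave room for changes below 1 log2 unit in either direction.

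Gnai2 encodes the Gi alpha subunit that is widespread outside the nervous system. Its probe set 1435652_a_at gave 6934.6 and 8689.8 in pseudopodia, against 5765.7 and 4582.1 in cell bodies. The fractions did not overlap, and the difference was 0.59 ± 0.19 (95% interval 0.16 to 1.03, limma adjusted p = 0.119, or 0.0112 with the replicate block). It was 0.36 after quantile normalization and 0.26 on hybridization controls. It was 0.27 in the replicate 1 pair and 0.92 in the replicate 2 pair. Its other probe set, 1419449_a_at, went by replicate, with 4351.8 and 1996.6 in pseudopodia and 4095.2 and 2471.0 in cell bodies (-0.11 ± 0.38, limma adjusted p = 0.90). Gnai3, another Gi alpha subunit, gave 863.6 and 659.2 in pseudopodia and 690.2 and 669.7 in cell bodies on 1428645_at (0.15 ± 0.22, limma adjusted p = 0.744). Its dim probe set 1437225_x_at stood at 0.35 ± 0.33.

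Gnas encodes the alpha subunit of Gs, the activator of adenylyl cyclase, and is an imprinted gene with several alternative first exons. RefSeq lists 23 transcripts for it, against 1 to 7 for each of the other members, and the promoter table, which covers 250 bases before and 50 after a start, holds 4 windows for it. The most upstream and the most downstream window are shown because Gnas was the member with the most annotated starts and transcripts, and which of them each probe set reads was not analysed here. Both are RefSeq sequence on build GRCm38.p6, plus strand, with every CG in capitals.
Upstream start, chr2:174284070-174284369: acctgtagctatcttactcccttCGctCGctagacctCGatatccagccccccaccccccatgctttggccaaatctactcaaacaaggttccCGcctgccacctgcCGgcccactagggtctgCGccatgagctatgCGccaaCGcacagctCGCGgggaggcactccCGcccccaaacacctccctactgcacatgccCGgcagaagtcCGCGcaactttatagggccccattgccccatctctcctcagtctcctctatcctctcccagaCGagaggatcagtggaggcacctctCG
Downstream start, chr2:174329756-174330055: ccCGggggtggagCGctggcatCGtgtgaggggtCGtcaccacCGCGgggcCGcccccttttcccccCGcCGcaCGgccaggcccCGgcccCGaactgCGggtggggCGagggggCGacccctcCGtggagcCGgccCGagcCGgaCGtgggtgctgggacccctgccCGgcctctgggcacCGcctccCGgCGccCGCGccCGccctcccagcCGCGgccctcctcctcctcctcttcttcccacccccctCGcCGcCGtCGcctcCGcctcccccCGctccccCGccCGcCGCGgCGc
The downstream window holds 40 CG, a number that 3.9% of the 32851 promoter windows of this length reach, and the upstream window 16, which 33% reach. All 9 member genes with a window in that table, every member but Gnai2, have at least 16 CG there, against a median of 7 over all windows.

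Of the 5 probe sets of Gnas, 2 passed the filter. Probe set 1450186_s_at gave 16795.0 and 16246.2 in pseudopodia, against 13175.9 and 13101.5 in cell bodies. Both pseudopodia arrays lay above both cell body arrays by similar amounts, 0.35 in the replicate 1 pair and 0.31 in the replicate 2 pair. The difference of 0.33 ± 0.13 did not pass (95% interval 0.03 to 0.63, limma adjusted p = 0.187). Its direction depended on the scaling: it was -0.02 after quantile normalization, and -0.003198 when the arrays were scaled on their hybridization controls. Probe set 1453413_at was near background, with 46.9 and 25.1 in pseudopodia and 54.3 and 66.5 in cell bodies (-0.58 ± 0.36, limma adjusted p = 0.393). The other 3 probe sets of Gnas were below the filter, with no array above 25.2.

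Gnb1 encodes a widely expressed beta subunit and held the only member probe set to pass. Probe set 1425908_at gave 49.9 and 67.8 in pseudopodia, against 164.7 and 169.0 in cell bodies. Both pseudopodia arrays lay below both cell body arrays, and the value fell by 1.30 ± 0.27 on the log2 scale used for the test (95% interval -1.93 to -0.67, limma adjusted p = 0.0438). The difference was -1.46 in the replicate 1 pair and -1.14 in the replicate 2 pair. The call was narrow: it ended without the variance trend (adjusted p = 0.0848), after quantile normalization (-1.16, adjusted p = 0.0642), with a pseudocount of 1 (adjusted p = 0.0516), without the filter (adjusted p = 0.127), and without cell body replicate 1 or cell body replicate 2 (adjusted p = 0.31 and 0.286).

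The other probe sets of Gnb1 did not pass. Probe set 1417432_a_at gave 5112.1 and 3524.0 in pseudopodia and 3973.6 and 4617.6 in cell bodies, overlapping at -0.01 ± 0.21 (limma adjusted p = 0.981). Probe set 1454696_at gave 3319.9 and 2856.9 in pseudopodia and 2712.8 and 2433.8 in cell bodies (0.26 ± 0.18, limma adjusted p = 0.437), with both pseudopodia arrays above both cell body arrays. On hybridization controls that value was -0.07. The fall was thus seen in 1 of the 3 probe sets of Gnb1. Which part or transcript of Gnb1 each probe set reads was not analysed here.

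Gnb2 encodes another beta subunit and had 1 probe set, 1450623_at. It gave 7147.4 and 3710.0 in pseudopodia, against 7337.7 and 6781.9 in cell bodies (-0.45 ± 0.28, limma adjusted p = 0.399). The replicate 1 pair was level, at -0.04, and the replicate 2 pair stood at -0.87, so the value rests on the pseudopodia replicate 2 array. Without that array it was 0.02, and without pseudopodia replicate 1 it was -0.92 (limma adjusted p = 0.00143, with its own spread taken from the cell body arrays alone).

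**Figure D3:**
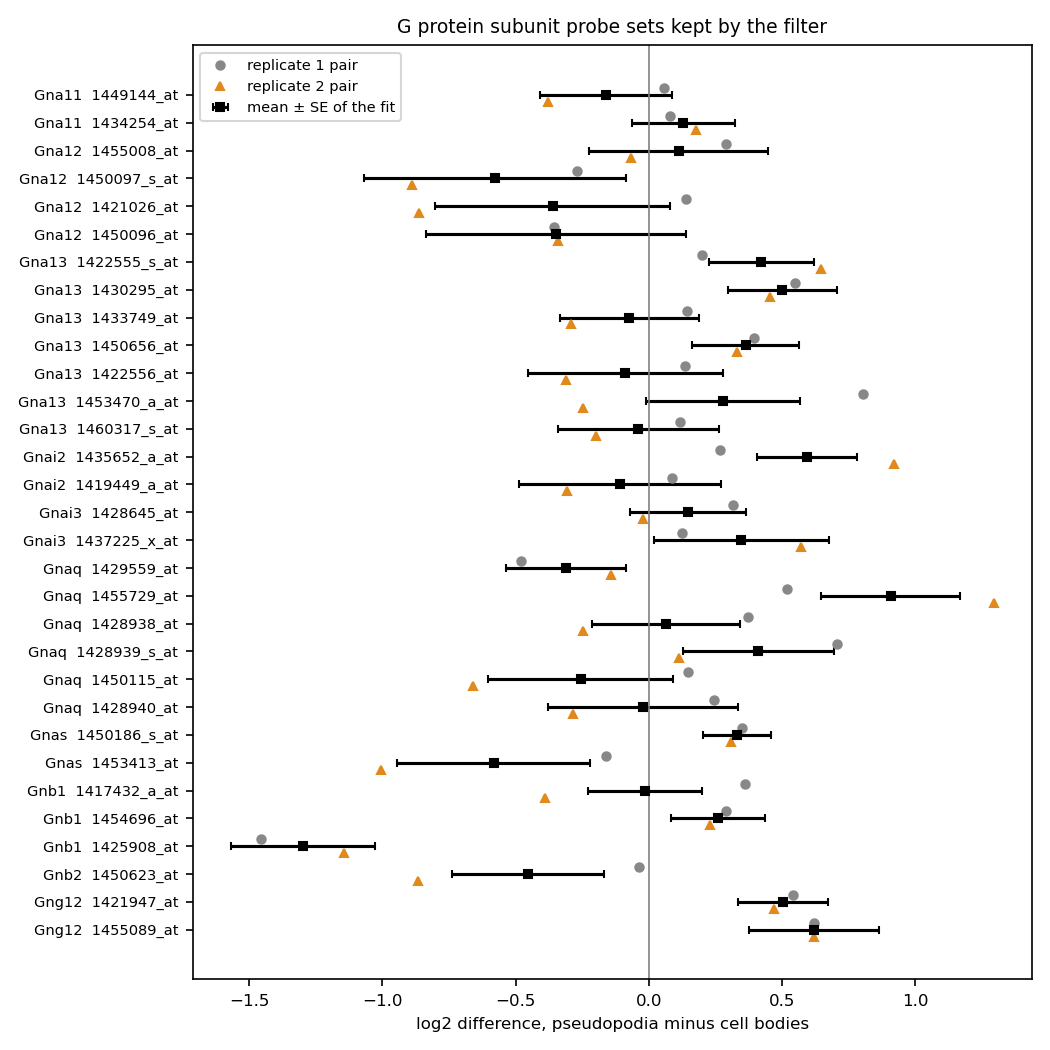
Log2 difference, pseudopodia minus cell bodies (horizontal axis), of the 31 tested G protein subunit probe sets, grouped by gene. Black squares with bars are the mean ± SE of the limma fit, grey circles the replicate 1 pair and orange triangles the replicate 2 pair. Gnb1 1425908_at stands apart at -1.30, both Gng12 probe sets lie to the right of 0 in both pairs, and several Gna12, Gnaq and Gnb2 triangles lie to the left of their circles.

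Gng12 encodes a gamma subunit, the small lipid-anchored partner of beta. Both of its probe sets were tested, and both were above 0 in each pair. Probe set 1421947_at gave 2792.3 and 2786.9 in pseudopodia, against 1916.0 and 2006.3 in cell bodies, and 1455089_at gave 1122.7 and 843.6 in pseudopodia, against 725.7 and 543.5 in cell bodies. In both probe sets the pseudopodia arrays lay above the cell body arrays. The differences were 0.51 ± 0.17 (95% interval 0.11 to 0.90) and 0.62 ± 0.24 (0.05 to 1.19), or 1.42-fold and 1.54-fold. Neither passed (limma adjusted p = 0.134 and 0.192), and both passed with the replicate block (0.0303 and 0.0272). The pairs agreed closely, with 0.54 and 0.47 on 1421947_at and 0.62 in each pair on 1455089_at. Scaling on hybridization controls, which lowered the median of all probe sets to -0.32, brought them to 0.17 and 0.29.

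Other subunits, with the beta-like gene Gnb1l counted among them, came from a list of 24 genes outside the 10 members. They were read by the brightest probe set of each gene with 1 symbol. Of the 15 that passed the filter, 1 was higher in pseudopodia and 0 were lower, where 1.08% and 3.32% of all probe sets were. By limma 3 had an unadjusted p under 0.05, where 22% of all probe sets did. The median difference of the 15 was 0.41, against 0.01 over the 10962 genes read in this way. That median was the value of Gngt1, a dim gene with 30.7 and 28.5 in cell bodies. Gng2, with 22.3 and 20.3 in cell bodies, passed the filter through its pseudopodia signals. Gna15, with 24.2 and 23.8 in pseudopodia, passed through its cell body signals. No conclusion is therefore drawn from the median. The gene that rose was Gng10, a gamma subunit, with 8006.5 and 7391.3 in pseudopodia, against 4383.2 and 4452.8 in cell bodies (0.80 ± 0.15, limma adjusted p = 0.0351). It stood at 0.87 in the replicate 1 pair and 0.73 in the replicate 2 pair. Its call ended after quantile normalization, on hybridization controls, without the variance trend, without the filter, and without either cell body array.

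The gamma subunit genes were set side by side after their values were seen, and so without a test, each by its brightest probe set. In 7 of the 9 both pseudopodia arrays lay above both cell body arrays. The share over all probe sets, a different unit, was 24.8%. Gng11, a gamma subunit, gave 493.3 and 550.0 in pseudopodia, against 301.3 and 298.2 in cell bodies (0.77 ± 0.21, limma adjusted p = 0.0853), a difference that was 0.45 on hybridization controls. Gng2, a relative, gave 82.7 and 81.0 in pseudopodia, against 22.3 and 20.3 in cell bodies (1.39 ± 0.33, limma adjusted p = 0.0579), a dim signal in both fractions. Its cell body signals lay below the medians of those arrays, 29.8 and 33.2, so it passed the filter through its pseudopodia signals. Gngt2 and Gngt1, also among the 7, were as dim, with means over the arrays of 44.5 and 37.2. Both were near those medians in cell bodies, Gngt1 at 30.7 and 28.5 and Gngt2 at 25.4 and 40.7. The filter may thus have let them in through their pseudopodia signals too, so the count of 7 is not weighed against the 24.8%. The 2 gamma genes below 0 were Gng3 and Gng8, at -0.19 and -0.29, with means of 34.9 and 75.03. The beta subunits Gnb4 and Gnb5 stood at -0.01 and -0.07, and at 0.16 and 0.05 after quantile normalization.

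**Figure D4:**
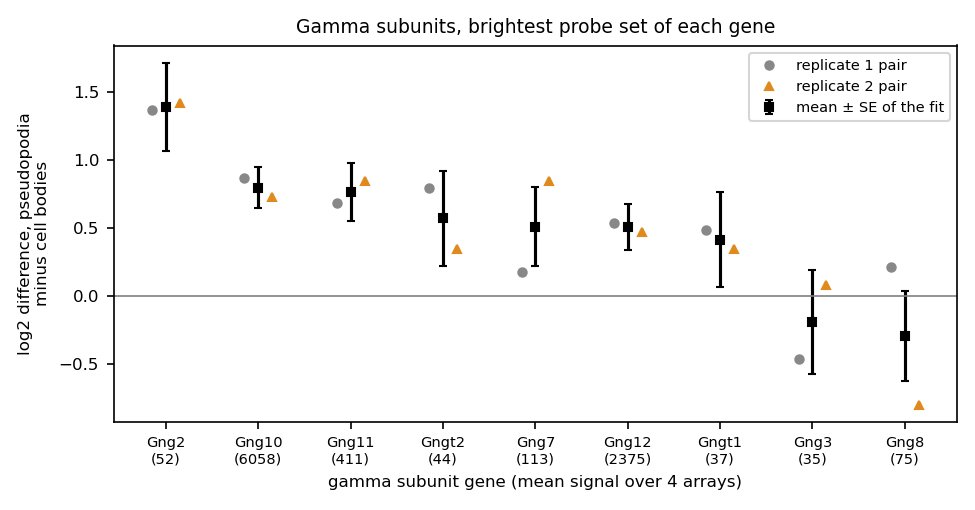
Log2 difference, pseudopodia minus cell bodies (vertical axis), of the 9 gamma subunit genes by the brightest probe set of each, ordered by the difference, with the mean signal over 4 arrays in brackets. Black squares with bars are the mean ± SE of the limma fit, grey circles the replicate 1 pair and orange triangles the replicate 2 pair. Gng2, Gng10 and Gng11 lie above 0.5 in each pair, and Gng3 and Gng8 lie below 0 on average.

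The members differed between the replicate pairs. Over the 31 probe sets the median difference was 0.20 in the replicate 1 pair and -0.20 in the replicate 2 pair, where all probe sets had medians of -0.01 and -0.04. In 14 of the 31 (45.2%), from 8 of the 10 genes, the pseudopodia replicate 2 array lay below both cell body arrays while the pseudopodia replicate 1 array did not, a pattern found in 14.9% of all probe sets. The pseudopodia replicate 2 array was the lowest of the 4 in 15 of the 31 (48.4%, against 29% of all probe sets). The 14 are not independent, since 4 are probe sets of Gna12 and 3 of Gna13. Without the pseudopodia replicate 2 array 27 of the 31 differences were above 0, and without the pseudopodia replicate 1 array 13 were. The pseudopodia replicate 2 array also had the highest beta-actin 3′ to 5′ ratio, 3.41, and more Neat1 and Malat1 signal than the other pseudopodia array. Its Gapdh 3′ to 5′ ratio was 1.01, against 0.96 on the other pseudopodia array. The part of RNA integrity or of nuclear RNA in these differences was not tested. In 14 of the 31 the difference between replicates was larger than that between fractions (45.2%, against 38.2% of all probe sets).

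**Figure D5:**
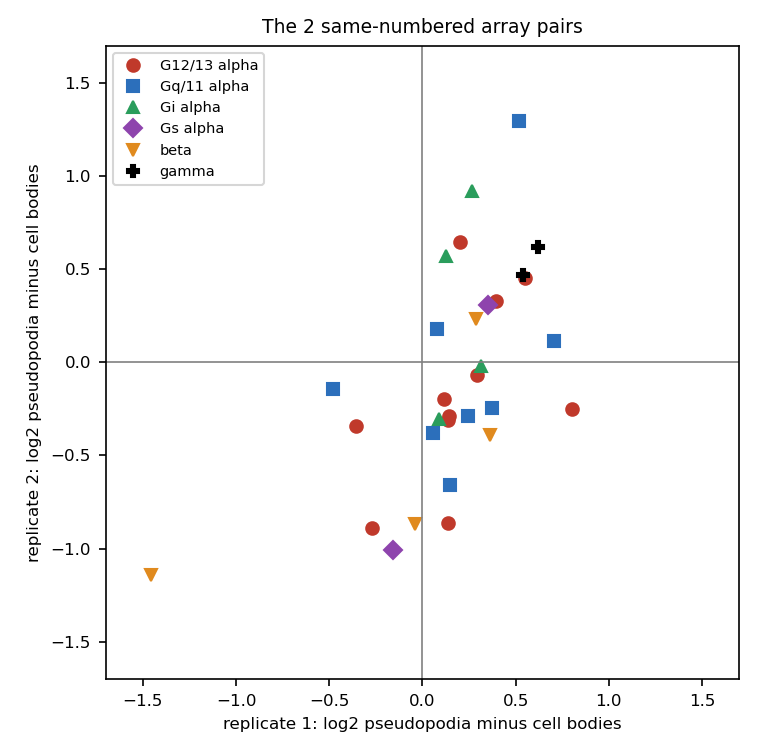
Log2 difference, pseudopodia minus cell bodies, of the 31 tested probe sets in the replicate 1 pair (horizontal axis) and the replicate 2 pair (vertical axis), by class of subunit. The upper right holds both Gng12 points, 1 Gnas point, and points of Gnaq, Gnai2, Gnai3, Gna13, Gna11 and Gnb1. Gnb1 1425908_at lies alone in the lower left corner, and a group of alpha and beta subunit points lies to the right of 0 but below it.

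Upstream of the subunits, 3 of the 6 LPA receptor genes listed passed the filter and 0 passed the test (limma, 1 at an unadjusted p under 0.05). Lpar1, a receptor that fibroblasts commonly express, gave 2409.7 and 2548.1 in pseudopodia, against 1948.1 and 1723.7 in cell bodies (0.43 ± 0.18, limma adjusted p = 0.209), and the difference was 0.10 on hybridization controls. The 21 tested regulators, which include RGS proteins that speed GTP hydrolysis and the chaperones Ric8a and Ric8b, had a median of 0.12. Of these 0 passed in either direction and 4 had an unadjusted p under 0.05 by limma. The 25 tested effectors had a median of 0.03, and among them 0 passed and 7 had an unadjusted p under 0.05 by limma. Of all probe sets 4.4% passed and 22% had an unadjusted p under 0.05. Arhgef1, an exchange factor activated by G13, stood at -0.62 ± 0.42 (limma adjusted p = 0.436, or 0.0356 with the replicate block). The Arhgef1 difference was -0.56 in the replicate 1 pair and -0.68 in the replicate 2 pair. Its replicate 2 minus replicate 1 difference, averaged over the fractions, was larger in size, at -1.01. Leaving out 1 array breaks a pair, and gave -1.15 without pseudopodia replicate 1 and -0.08 without pseudopodia replicate 2. It gave -0.14 without cell body replicate 1 and -1.09 without cell body replicate 2. RhoA itself stood at 0.14 ± 0.15, which turned to -0.19 on hybridization controls. With the replicate block 3 of the other subunits, 3 regulators, 6 effectors and 0 LPA receptors passed, where 18.1% of all probe sets did.

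The 3 genes whose values over the 4 arrays were most like those of Gnb1 1425908_at were Scd2, Zkscan1 and Sel1l. Likeness was the Euclidean distance between log2 values centred on their own mean, 0.0637, 0.0812 and 0.087, over 19321 probe sets with 1 symbol that was not a member. Scd2, a fatty acid desaturase, gave 144.6 and 189.0 in pseudopodia, against 426.6 and 413.8 in cell bodies. Zkscan1, a zinc finger protein, and Sel1l, of endoplasmic reticulum-associated degradation, differed by -1.32 and -1.33, against -1.30 for the Gnb1 probe set. Over only 4 arrays such likeness is common, and 83 probe sets lay within a distance of 0.25.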

How the data were processed

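The deposited values are linear intensities made by the authors with MAS5, per the submitters' processing notes, with 1 value for each probe set on each array, and every array had been scaled to a trimmed mean of 250, as found from the values. No version or detection call is given in the sources used here. Because MAS5 takes off the signal of mismatched probes, low values are noisy. The scanner files hold settings only and, per the file headers, give 2 scan days, each with 1 array of each fraction.

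Each array was rescaled so that its mean, with 2% cut from either end, was 500, and values were taken as log2(signal + 32), so that low signals show too small a change. Those with a mean log2 value at or above the median of the 45037 that are not controls were kept (22519). The test between fractions was that of limma 3.58.1 under R 4.3.3 (variance trend, two-sided, threshold 0.05 on the Benjamini-Hochberg adjusted p), without a block. Residual degrees of freedom were 2 and those of the prior 5.56, or 1 and 16.8 with the block. Simulated data with 200 changed probe sets were used to check the fit.

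Replicate numbers pair the arrays through the experiment codes in the labels and the scan day. The replicate 2 minus 1 differences in the 2 fractions correlated with r = 0.243 over probe sets, which are not independent. Gene names came from the platform annotation, and all 10 symbols matched the RefSeq gene table. Where in its gene a probe set lies was not analysed here, and array number limits the precision. Named genes are all members, up to 4 genes past the threshold in each list, Rab13 and Neat1 for scale, and the 3 genes most like the called member probe set. Other genes were named after their values were seen. Members and lists were chosen with earlier results of these data known. Scalings, pseudocounts, filters, the variance trend, the block and leaving out each array were tried as alternatives.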

Additional observations from a re-analysis of the deposited data

How the results depend on the processing

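Of all probe sets, 243 were higher and 747 lower. The counts were 0 and 0 without the variance trend (4487 at an unadjusted p under 0.05), 1541 and 2546 with the replicate block, 54 and 1506 on hybridization controls, 158 and 495 with a pseudocount of 1, and 39 and 137 without the filter. Leaving out 1 array at a time gave 0 to 1304 higher and 0 to 2652 lower, the 0 without either cell body array (2502 and 2959 at an unadjusted p under 0.05 by limma). Of the G protein subunit probe sets, 0 were higher and 1 lower. With the replicate block 4 were higher, and without 1 array at a time 0 to 2 were higher and 0 to 4 lower: without pseudopodia replicate 1, Gnai2 1435652_a_at and Gnaq 1455729_at were higher and Gnb2 and Gna12 1450097_s_at and 1421026_at lower, and without pseudopodia replicate 2, Gng12 1455089_at was higher. The count lower was 0 without the variance trend (2 members at an unadjusted p under 0.05), after quantile normalization (5), with a pseudocount of 1 (7), without the filter (6), and with a filter at the 75th percentile, which removes the called Gnb1 probe set. That probe set kept its sign in the 13 alternatives that tested it, from -1.58 to -0.9992, and passed in 7 of them (adjusted p 0.00299 to 0.31). Gng10 passed in 8 of 14, from 0.47 to 0.86. For the other tested probe sets, none past the threshold as reported, the sign turned in 4 after quantile normalization, in 7 on hybridization controls, and in 2 to 11 when 1 array was left out.

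Other G protein subunits past the threshold numbered 1, and 0 without the variance trend, after quantile normalization, on hybridization controls and without the filter, 2 with a pseudocount of 100, 3 with the replicate block, and 0 to 3 without 1 array at a time. Regulators numbered 0, 3 with the replicate block and 0 to 2 without 1 array. Effectors numbered 0, 1 on hybridization controls, 6 with the replicate block and 0 to 6 without 1 array. LPA receptors stayed at 0 in all settings. Where a cause is not given above, it was not tested. In fits without 1 array, the remaining array of that fraction was assumed to vary as the other fraction does.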
